A study of Mus musculus with 55 samples.

Results

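The 10 genes described here encode granins and other proteins of the dense-core secretory granule, the organelle in which endocrine cells of the pancreatic islet store hormone. They were taken by name (Chga, Chgb, Scg2, Scg3, Vgf, Ptprn, Ptprn2, Slc30a8, Scgn and Vamp2), and all 10 were found among 47937 genes counted in bulk RNA-seq of mouse islets. All 10 also passed the filter on low counts, which left 18685 genes for the comparison of knockout with wild type. Granins are acidic, calcium-binding proteins that aggregate in the trans-Golgi network and help to form granules, and several of them are cut into secreted peptides. Other members sit in the granule membrane, carry zinc into the granule, sense calcium or dock the granule for release.

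The study asked what loss of Polycomb silencing does to islets. Eed is a core subunit of PRC2, the complex that writes the repressive mark H3K27me3. Islets were whole islets of C57B6/J mice, hand-picked and kept in culture medium with 11 mM glucose, and a library held islets of 1 or more animals. Per the study's methods, each 25-week βEedKO library pooled islets of more animals than the libraries of the other groups, so its spread between libraries is not of the same kind as theirs. The 6 groups were wild type (WT) at 8 weeks (n = 3) and 25 weeks (n = 3), Eed heterozygous (HET) at 8 weeks (n = 3) and 25 weeks (n = 2), and Eed -/- (βEedKO) at 8 weeks (n = 3) and 25 weeks (n = 2). Eed was deleted by a Cre driven by the rat insulin promoter, so the deletion is aimed at β cells and the other islet cells keep the gene. In bulk RNA of such mixed tissue, fewer cells of a type and less RNA per cell cannot be told apart. From staining, the study reports no evidence of altered cell death. It also reports that hormone-negative βEedKO cells kept chromogranin A, the protein of Chga. The study reports overt diabetes with low insulin in βEedKO mice of the older age, while those of the younger age tolerated glucose. In comparisons that use the 25-week βEedKO libraries, diabetes is not separated from loss of Eed or from age. The part of high blood glucose in the results was not tested.

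Library totals ran from 4645393 counts (WT replicate 2 at 25 weeks) to 22925359, and levels are given as CPM, read counts scaled to library size with TMM factors. Eed itself was at 23.9 to 33.1 CPM in WT and 13.4 to 14.9 in βEedKO at 8 weeks, and at 19.3 to 28.3 against 14.3 to 15.6 at 25 weeks, with no overlap at either age, and reads outside the deleted exons count too. The summed level of 8 β cell markers, among them Ins1 and Ins2, was 123355 to 220461 CPM in WT at 25 weeks and 13948 to 17322 in βEedKO. Of the 8, 7 were called lower, beside 2.02% of all genes. At 8 weeks it was 137692 to 207245 and 130814 to 214491 CPM, with none called. The 8 α cell markers summed to 8357 to 9360 CPM in WT and 12118 to 12784 in βEedKO at 25 weeks. RNA of acinar cells (10 markers) was present in every group and spread widely, at 389139 CPM in βEedKO replicate 2 and 12964 in replicate 3 at 25 weeks and 29979 to 215372 in WT. The mesenchyme list (6 markers) was at 86.9 to 123 CPM in WT and 240 to 357 in βEedKO, and the duct list (6 markers) at 229 to 299 and 569 to 696. At 25 weeks 3 of the 8 α cell, 3 of the 6 mesenchyme and 3 of the 6 duct markers were called higher, beside 4.58% of all genes. None of these was called lower, and no acinar marker was called. The part of these markers in the results was not tested. Of the 8-week libraries, 4 (WT replicates 3 and 4, βEedKO replicates 4 and 5) held 3430 to 5014 CPM of 10 interferon-induced genes, against 68.2 to 108 in the other 5.

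The start sites of the members were first placed on the deposited chromatin state map of wild-type islets, which gives a letter to each bin of 200 bp (GRCm38). State A, the active start site, stood at the annotated gene start of 9 of the 10 members, against 30.0% of 20773 protein-coding autosomal genes. The run of active states A, B and C around the start was longest at Chga (chr12:102554969-102565028, plus strand), where it covered 11.6 kb. It was 9 kb at Ptprn2 (chr12:116485720-117276849), 8 kb at Scg2 (chr1:79434669-79440120), 7 kb at Scg3 (chr9:75643189-75684056) and 5 kb at Slc30a8 (chr15:52295553-52335798). Scgn (chr13:23953456-23991214) had 4.6 kb, Vamp2 (chr11:69088490-69092384) 3.6 kb, Chgb (chr2:132781278-132795079) 2.4 kb and Ptprn (chr1:75247027-75264502) 2 kb. The median over the 9412 protein-coding genes with such a start was 1.2 kb, and 99.9% of them had a shorter run than Chga, against 78.3% for Ptprn.

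Vgf (chr5:137026392-137033351, plus strand) was the exception. Its annotated start lay in state M, the bivalent state rich in H3K27me3, and bivalent states M and L covered 52.8% and 30.6% of the gene body. The starts of 2 further protein-coding transcripts, 3903 and 3972 bp downstream, lay in state A, and that of another at 4309 bp in state L. In the plotted window, short bivalent stretches also followed the active start at Chgb, Ptprn and Slc30a8 and preceded it at Scg2.

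**Figure D1:**
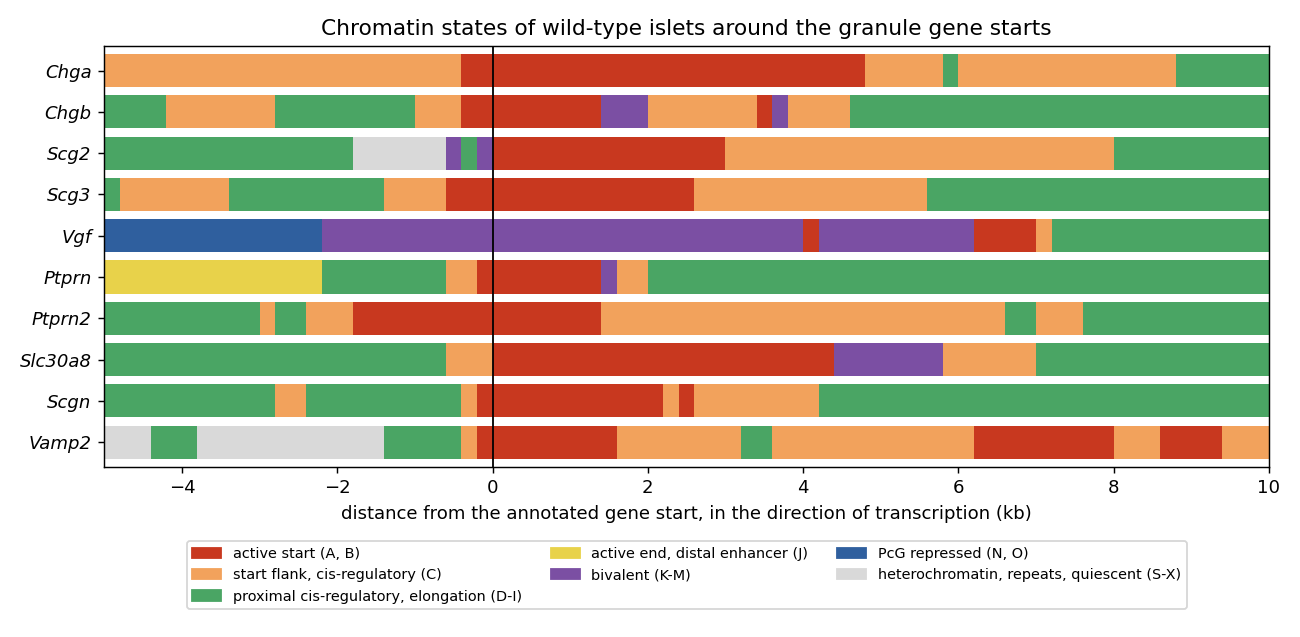
Chromatin states of wild-type islets in 200 bp bins from 5 kb before to 10 kb after each annotated gene start (x axis, kb, in the direction of transcription), with 1 row per member and colours for classes of states. State A stands at the start of 9 members, while the start of Vgf lies within a bivalent domain.

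Short promoter sequence was available from RefSeq (GRCm38.p6) for 7 members, and Vgf, Slc30a8 and Vamp2 were not among them. Motifs were searched on both strands from 250 bases before to 50 after the RefSeq start. TGACGTCA, the full cAMP response element, was found at Chgb and Scg2 and in 1.79% of 32851 promoters. Its core TGACG, which the full element contains on both strands, was found at 5 members and in 20.8% of all promoters. The sites are shown because Chgb and Scg2, which hold the same element at nearly the same distance from the start, moved in opposite directions in the knockout at 25 weeks. Each line gives 30 bases 5′ to 3′ on the strand of the gene, with the core or full element in capitals.
Chgb: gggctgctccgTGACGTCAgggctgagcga
Scg2: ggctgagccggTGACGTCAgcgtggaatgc
Chga: gggcggtcctaTGACGtaatttcctgggtg
Scg3: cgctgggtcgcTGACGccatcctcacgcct
The Chgb site (chr2:132781559-132781588, plus strand) began 72 bases before the RefSeq start, and the Scg2 site (chr1:79440076-79440105, minus strand) 68 bases before it. Gencode starts both genes further upstream, by 364 and 94 bases, so both sites lie downstream of those starts. A further protein-coding Gencode transcript of Scg2 starts at 79440042, and the Scg2 site lies before that start. The core began 44 bases before the start at Chga (chr12:102554886-102554915, plus strand) and 30 bases before it at Scg3 (chr9:75684068-75684097, minus strand). Ptprn held 2 cores, at 117 and 80 bases before its start. TATAAA was found only at Chga among the 7, 5 bases after the RefSeq start, and in 13.6% of all promoters. Gencode starts Chga 28 bases further downstream, so TATAAA lies before that start and the core further before it than 44 bases.

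TTCAGCACC, a stretch of the element bound by REST, stood at Scg2 and Ptprn2, against 0.371% of all promoters. REST is a repressor of neuronal and endocrine genes. Both sites read in the reverse direction (GGTGCTGAA, in capitals), and the bases before them were alike.
Scg2: aggagctgtccGGTGCTGAAacggcccgag
Ptprn2: tggcgctgtccGGTGCTGAAgctcggccgg
The Scg2 window is chr1:79440015-79440044 (minus strand) and that of Ptprn2 chr12:116485722-116485751 (plus strand). A match of letters is a description of the window, and binding was not measured here.

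In wild-type islets at 8 weeks the members spanned a wide range of levels. To compare genes, CPM was divided by the exon length of each gene in kb. Chga was highest, at 4671 ± 511 CPM per kb (SD, n = 3), and ranked 18 among 21697 protein-coding genes. Scg2 followed at 2615 ± 336, and both stood apart from their neighbours in every library. Scg3 (558 ± 81.8) and Chgb (467 ± 55.9) overlapped, as did Chgb and Slc30a8 (341 ± 62.6). Scgn was next at 186 ± 35.5 CPM per kb. Ptprn (88.3 ± 27.4) and Ptprn2 (75.0 ± 13.8) did not differ beyond their spread. Vamp2 was at 48.0 ± 6.98 and Vgf was lowest, at 18.0 ± 13.1 CPM per kb.

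At 25 weeks βEedKO islets showed another order. Chga stayed highest, at 5065 ± 154 CPM per kb (SD, n = 2), and Chgb was now second, at 3617 ± 1040, above Scg2 at 646 ± 247. Below these, Scg3, Ptprn, Vgf, Scgn, Slc30a8, Vamp2 and Ptprn2 followed with each neighbouring pair overlapping. Slc30a8, at 42.2 ± 12.0 CPM per kb in βEedKO, had been at 424 ± 20.2 in WT of the same age, level with Scg3 and Chgb. Within the set, which needs no scaling between libraries, Chgb made up 33% and 39.5% of the members' reads per kb in the 2 βEedKO libraries of 25 weeks, against 3.47% to 5.74% in the other 14. Scg2 made up 5.40% and 7.44% there, against 22.2% to 34% elsewhere.

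**Figure D2:**
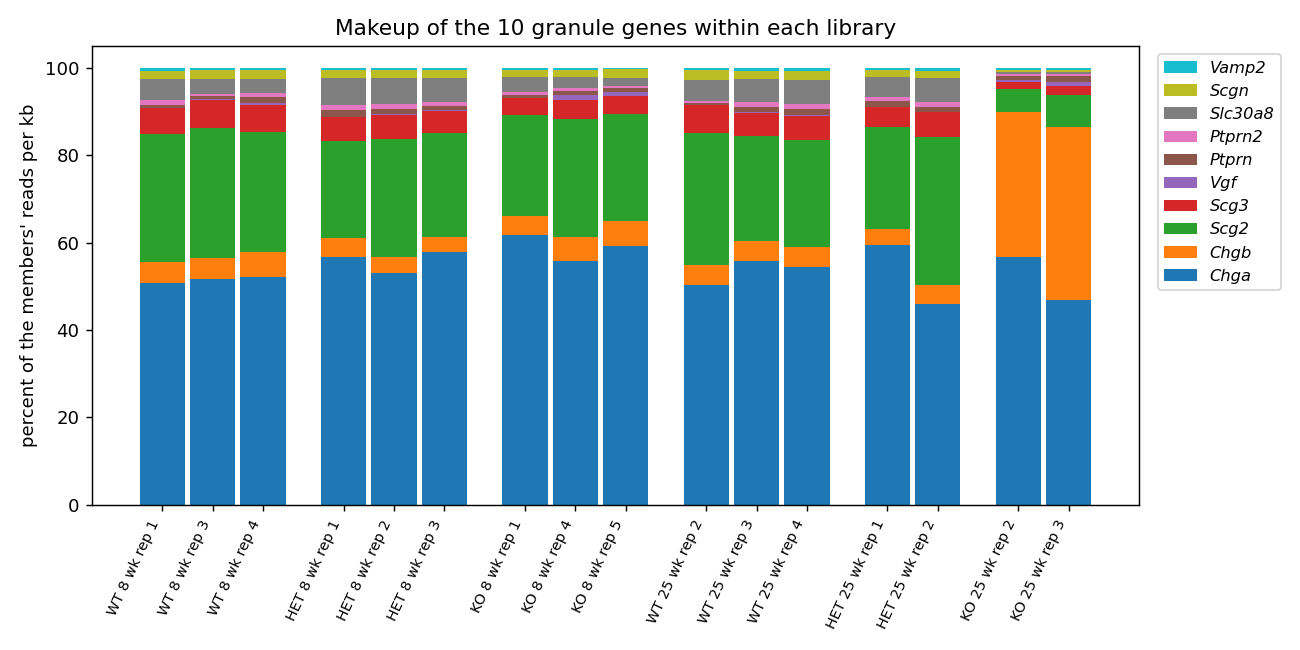
Share of each member in the summed reads per kb of the 10 members (y axis, percent), with 1 bar per library (x axis, group and replicate). Chgb takes 33% and 39.5% in the 2 βEedKO libraries of 25 weeks, and 3.47% to 5.74% in the other 14.

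Together the members drew 1.68% to 2.51% of all counted reads in WT at 25 weeks and 1.83% and 4.57% in the 2 βEedKO libraries. The spread between these 2 libraries is wide, and the acinar list differed between them too, so ratios of members within a library are given beside the scaled levels. The ratio of Chgb to Chga per kb was 0.581 and 0.841 in βEedKO at 25 weeks, and 0.0600 to 0.110 in the other 14 libraries. The ratio of Scg2 to Chga was 0.0951 and 0.159, against 0.372 to 0.739. Slc30a8 to Chga gave 0.00681 and 0.00980, against 0.0331 to 0.122. Each of these ratios in βEedKO at 25 weeks lay outside the range of the other libraries.

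Knockout was then compared with wild type by edgeR's quasi-likelihood test over all genes, with Benjamini-Hochberg adjustment and an adjusted p under 0.05 as the call. At 25 weeks 5 of the 10 members were called, 1 higher and 4 lower, while 6.6% of all genes tested were called, 4.58% higher and 2.02% lower. The median log2 fold change of the members was -0.68, beside 0.03 over all genes. Chgb rose, and Scg2, Scg3, Slc30a8 and Scgn fell. With scaling by library size alone Scg2, Scg3 and Scgn were not called (adjusted p = 0.233, 0.286 and 0.106), and without the 4 interferon-high libraries Scg2 and Scg3 were not (adjusted p = 0.14 and 0.0895). At 8 weeks no member was called by edgeR or by DESeq2, none had an unadjusted p under 0.05, and 0.434% of all genes were called, 0.428% higher and 0.00535% lower.

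**Figure D3:**
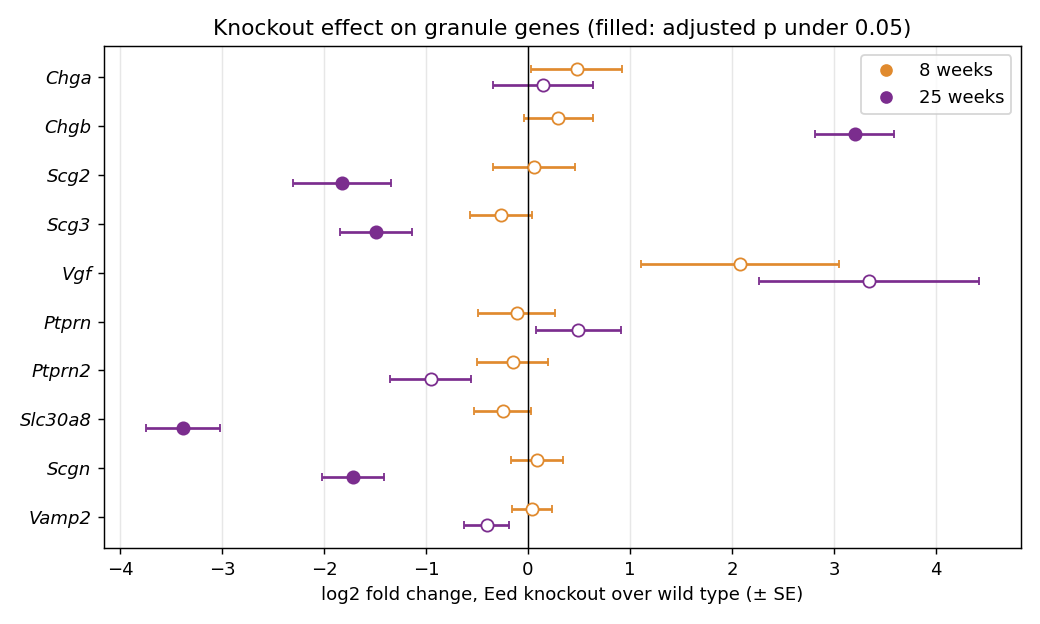
Log2 fold change of βEedKO over WT (x axis) with its standard error for each member, at 8 weeks (orange) and 25 weeks (purple). Filled points passed an adjusted p under 0.05: Chgb, Scg2, Scg3, Slc30a8 and Scgn at 25 weeks and none at 8 weeks.

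The granins went different ways. Chgb, chromogranin B, was at 1179, 1042 and 875 CPM in WT at 25 weeks and at 7894 and 11926 in βEedKO, so that both knockout libraries stood far above all 14 others, whose highest value was 1879. It was 9.22-fold higher (log2 fold change 3.21 ± 0.39 SE, adjusted p = 0.00139). At 8 weeks the values were 1102, 1365 and 1369 CPM in WT and 1354, 1483 and 1879 in βEedKO, which overlap (log2 0.30 ± 0.34, adjusted p = 0.921).

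Chga, chromogranin A, is the other chromogranin and the precursor of several secreted peptides. It was at 13067, 12635 and 10696 CPM in WT and 13660 and 14259 in βEedKO at 25 weeks, higher in both but by little (log2 0.15 ± 0.49, adjusted p = 0.912). At 8 weeks WT held 11668, 14419 and 12531 CPM and βEedKO 19264, 15139 and 19487 CPM, again without overlap and without a call (log2 0.48 ± 0.44, adjusted p = 0.89). Genes with all βEedKO libraries above all WT libraries made up 6.54% of those tested at 8 weeks and 24.7% at 25 weeks. Chga was the 1 member of that kind at 8 weeks, the other 9 overlapped, and 4.86% of genes were lower in all βEedKO libraries.

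Scg2, secretogranin II and the precursor of secretoneurin, was at 7174, 4966 and 4407 CPM in WT at 25 weeks and at 1186 and 2064 in βEedKO. The groups did not overlap, and the fall by 1.82 on the log2 scale (SE 0.48) gave an adjusted p of 0.0481. With the replicate number as a block it was not called (adjusted p = 0.123), and leaving out any 1 of the 11 libraries other than WT replicate 1 of 8 weeks lost the call (adjusted p up to 0.249, without βEedKO replicate 2 of 25 weeks). Values at 8 weeks were 6151, 7551 and 6032 CPM in WT and 6533, 6699 and 7333 in βEedKO, and they overlapped.

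Scg3, secretogranin III, binds Chga and anchors granin aggregates to the granule membrane. Its levels at 25 weeks were 1659, 1163 and 1083 CPM in WT and 382 and 584 in βEedKO. It fell by 1.49 on the log2 scale (SE 0.36, adjusted p = 0.0341), but the block gave an adjusted p of 0.0726. Leaving out any 1 library of 25 weeks, or WT replicate 4 or βEedKO replicate 4 or 5 of 8 weeks, also lost the call (adjusted p = 0.0501 to 0.228). At 8 weeks WT values of 1337, 1773 and 1470 CPM overlapped with 1224, 1187 and 1399 in βEedKO.

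Vgf encodes a granin-like precursor of neuroendocrine peptides. It was at 7.41, 27.2 and 25.8 CPM in WT at 25 weeks and at 115 and 317 in βEedKO, so the groups lay far apart, yet the spread of the fit was wide (log2 3.34 ± 1.08, adjusted p = 0.101). With the replicate block it was called (log2 3.66, adjusted p = 0.0101). DESeq2 and the 6-group fit gave adjusted p = 0.00709 and 0.039. WT replicate 2 held 34 reads of Vgf, in the shallowest library. HET libraries were at 18.1 to 25.0 CPM over both ages.

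At 8 weeks Vgf moved with the interferon-induced genes. WT held 10.3, 64.7 and 85.6 CPM and βEedKO 23.8, 327 and 331, and in each group the low library was the one low in interferon-induced RNA. Among the low libraries βEedKO replicate 1 was 2.32-fold above WT replicate 1, with 1 library a side. Among the high ones the mean was 4.38-fold higher (2 against 2) and the values did not overlap. In the 25-week βEedKO libraries the interferon-induced genes summed to only 94.6 and 164 CPM, while Vgf was at 115 and 317. These 8-week libraries differed in other RNA too. The α cell markers summed to 12531 CPM in WT replicate 1 against 26832 and 30926 in replicates 3 and 4. In βEedKO they summed to 13353 in replicate 1 against 16537 and 26037 in replicates 4 and 5. The acinar list was highest in replicate 1 of both groups. The part of interferon-induced RNA and of these markers in the 8-week values was not tested.

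**Figure D4:**
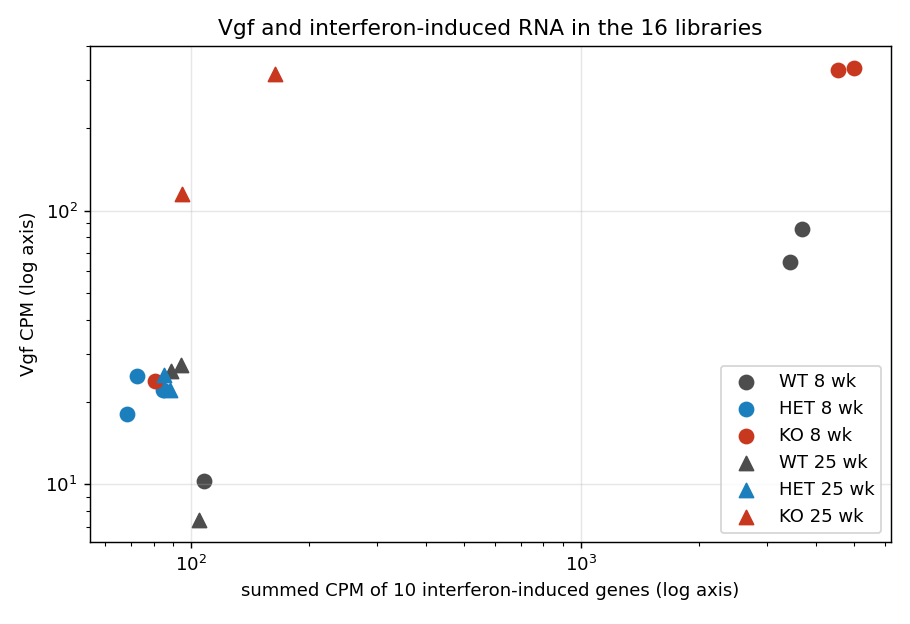
Vgf level (y axis, CPM, log axis) against the summed level of 10 interferon-induced genes (x axis, CPM, log axis) in each of the 16 libraries, with circles for 8 weeks, triangles for 25 weeks, and WT in grey, HET in blue and βEedKO (KO) in red. The 4 libraries at the right are WT replicates 3 and 4 and βEedKO replicates 4 and 5 of 8 weeks, while the 25-week βEedKO libraries have high Vgf (115 and 317) at the low interferon level.

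The pair of receptor-type phosphatases of the granule membrane followed next. Ptprn (IA-2) was at 205, 428 and 432 CPM in WT at 25 weeks and 352 and 691 in βEedKO, which overlap (log2 0.49 ± 0.42, adjusted p = 0.577), and without βEedKO replicate 3 its difference was slightly below zero (-0.06). Ptprn2 (phogrin) was at 335, 781 and 716 CPM in WT and 276 and 380 in βEedKO, overlapping because WT replicate 2 was low (log2 -0.95 ± 0.40, adjusted p = 0.207). Their ratio per kb was 2.59 and 3.68 in βEedKO at 25 weeks against 0.834 to 1.86 in the other 14 libraries, higher in both knockout libraries. Ptprn shares 189 bp of exon with the antisense gene Gm28294, and use of strand in counting is not stated.

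Slc30a8 (ZnT8) carries zinc into the granule of β cells, where insulin crystallises with it. Its levels at 25 weeks were 865, 851 and 790 CPM in WT, 860 and 962 in HET and 66.5 and 100.0 in βEedKO, far below every other library. It was 10.4-fold lower (log2 -3.38 ± 0.36, adjusted p = 0.000715) and stayed called with the replicate block and under all the alternatives tried. At 8 weeks WT was at 803, 653 and 558 CPM and βEedKO at 762, 474 and 461, overlapping (log2 -0.25 ± 0.28, adjusted p = 0.919). In the interferon-low libraries of that age βEedKO was 0.950 of WT, and in the high ones 0.772, where the groups did not overlap.

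Scgn (secretagogin), an EF-hand calcium sensor that binds the release machinery, was at 363, 261 and 221 CPM in WT and 81.2 and 97.0 in βEedKO at 25 weeks. The groups were well apart, 3.28-fold lower in βEedKO (log2 -1.72 ± 0.31, adjusted p = 0.00884). Without βEedKO replicate 2 the adjusted p was 0.0921 and without replicate 3 it was 0.0629. At 8 weeks the levels of 259, 366 and 276 CPM in WT overlapped with 304, 284 and 372 in βEedKO. Vamp2, the v-SNARE that drives granule fusion, was at 189, 210 and 214 CPM in WT and 151 and 169 in βEedKO at 25 weeks, lower in both but uncalled (log2 -0.41 ± 0.22, adjusted p = 0.348).

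In all, 8 of the 10 members had βEedKO libraries on one side of all WT libraries at 25 weeks, 3 higher and 5 lower, and such genes made up 24.7% and 15.9% of those tested. Against the other 14 libraries together, Chgb stood above and Scg2, Scg3, Slc30a8 and Scgn below, as did 8.94% and 4.92% of genes.

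**Figure D5:**
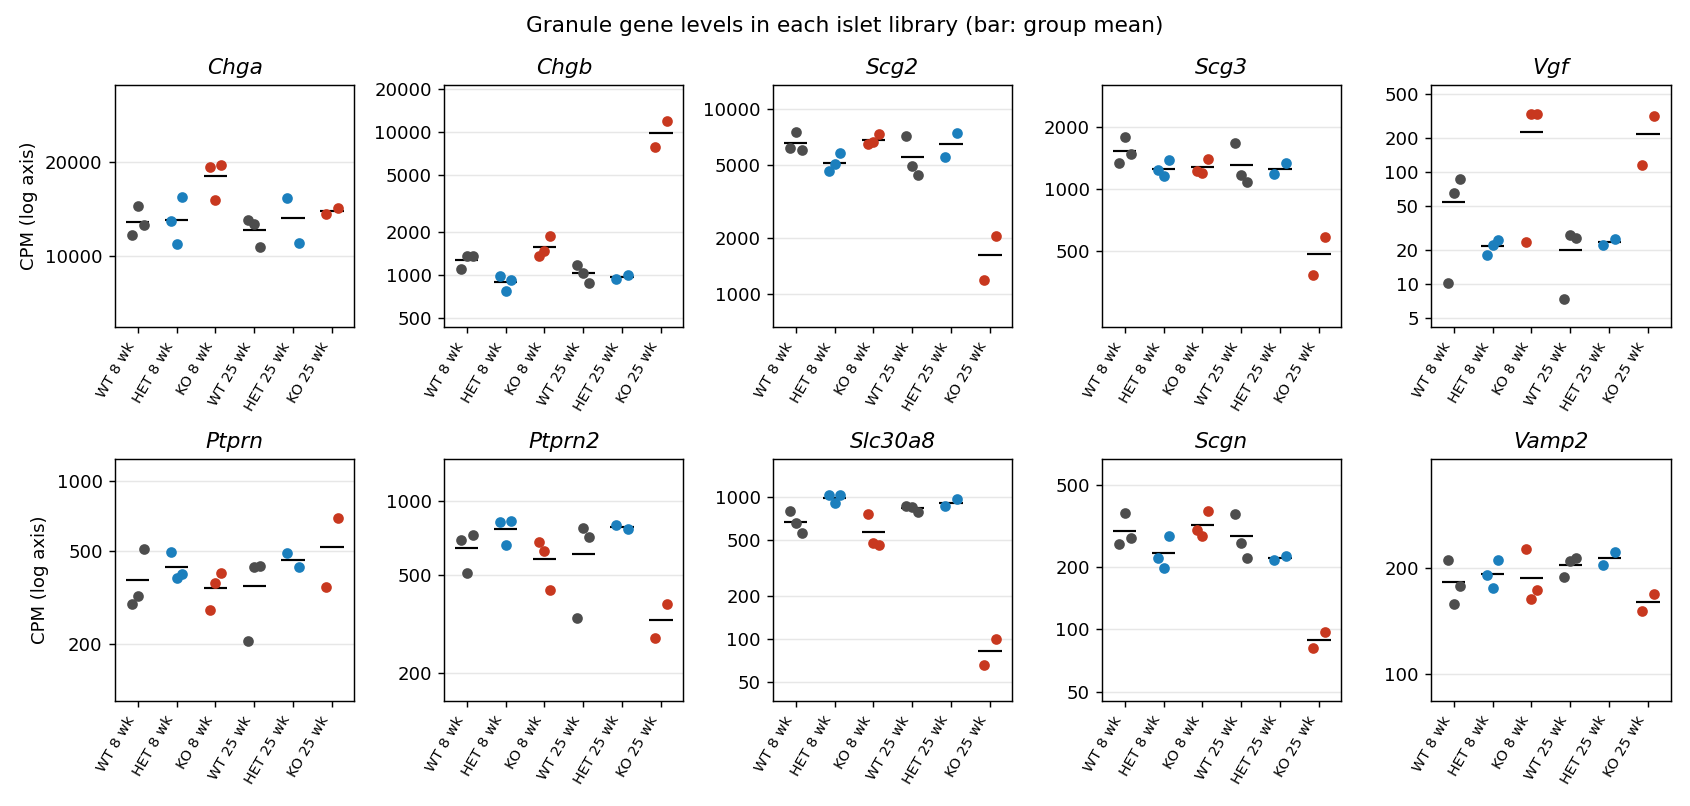
Level of each member in each library (y axis, CPM, log axis) by genotype and age (x axis), with a bar at the group mean and βEedKO written as KO. In the 2 βEedKO libraries of 25 weeks Chgb lies above, and Scg2, Scg3, Slc30a8 and Scgn below, the other 14 libraries.

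Whether the knockout effect differed between the ages was tested by the interaction in the same fit. Of the members, 1 was called, against 0.198% of all genes, 0.091% higher and 0.107% lower. For Slc30a8 the effect at 25 weeks minus that at 8 weeks was -3.14 ± 0.44 (SE) on the log2 scale (adjusted p = 0.0217). It was not called with the replicate block (adjusted p = 0.107). Without the interferon-high libraries it was -3.32, but 1 library a side is left at 8 weeks, so no call is read there. For Chgb the difference was 2.91 ± 0.51 (adjusted p = 0.0628), for Scgn -1.80 ± 0.39 (adjusted p = 0.129) and for Scg2 -1.88 ± 0.61 (adjusted p = 0.38). Within βEedKO, 3 members were called between 8 and 25 weeks, against 1.5% of all genes, 1.02% higher and 0.487% lower. Chgb rose by 2.60 ± 0.38 (adjusted p = 0.0106), Slc30a8 fell by 2.81 (SE 0.35, adjusted p = 0.00466) and Scgn fell by 1.90 (SE 0.31, adjusted p = 0.0173), all on the log2 scale. Of the 3 βEedKO libraries of 8 weeks, 2 are interferon-high, and leaving them out leaves 1, so calls of that fit are not read. Leaving out βEedKO replicate 2 or replicate 3 of 25 weeks left fewer members called than the 3 named above. The blocked fit cannot give this comparison, since the ages share no block. Of the 10 members, 1 was higher and 6 were lower in both 25-week βEedKO libraries than in all those of 8 weeks, as were 17.3% and 11.3% of genes. In WT no member was called between the ages by edgeR or DESeq2 and none had an unadjusted p under 0.05. Over all 18685 genes edgeR called 0% (1898 at an unadjusted p under 0.05) and DESeq2 139. All 10 members overlapped between the ages in WT, while 7.08% of genes were higher and 8.95% lower without overlap.

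Loss of 1 Eed allele was followed in HET islets. No member was called against WT at either age by edgeR or DESeq2. Over all 18828 genes edgeR called 0% at both ages (2743 and 210 at an unadjusted p under 0.05), and DESeq2 407 at 8 weeks and 3 at 25 weeks. At 8 weeks 1 member had an unadjusted p under 0.05: Slc30a8, at 1031, 899 and 1030 CPM in HET (log2 0.56 ± 0.25, adjusted p = 0.326), above all 3 WT libraries. At 25 weeks none had, and all 10 overlapped, beside 8.9% of genes higher and 7.06% lower without overlap. Chgb was at 993, 777 and 920 CPM in HET at 8 weeks, below WT in each library (log2 -0.51 ± 0.27, adjusted p = 0.382). Without overlap at 8 weeks, 1 member was higher (Slc30a8) and 2 were lower (Chgb and Scg2) in HET, as were 10.3% and 9.09% of genes. All HET libraries of that age were low in interferon-induced RNA, while WT replicates 3 and 4 were high. Genotype and that signal cannot be told apart in this 8-week comparison.

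Against HET, βEedKO at 25 weeks gave 5 calls among the members, the same 5 genes as against WT, beside 8.36% of all genes, 5.41% higher and 2.95% lower. The βEedKO libraries are shared by both comparisons. Without overlap, 2 members were higher and 6 lower, as were 33.9% and 27.9% of genes. Slc30a8 was 10.9-fold lower (adjusted p = 8.33e-05) and Chgb 10.2-fold higher (adjusted p = 0.000158). At 8 weeks 1 member was called, beside 4.74% of all genes, 3.6% higher and 1.14% lower. It was Vgf, 10.5-fold higher (adjusted p = 0.0484), although 1 βEedKO library, at 23.8 CPM, lay within the HET range. With scaling by library size alone 0 members were called, and leaving out 1 library moved the count in 14 of 16 fits. It was 3 without βEedKO replicate 1 of 8 weeks, 1 without WT replicate 1 of 8 weeks or WT replicate 2 of 25 weeks, and 0 without any other library. Over all genes the main fit called 892 in this comparison, and scaling by library size alone 505. Leaving out βEedKO replicate 1 of 8 weeks gave 4014, and WT replicate 1 of 8 weeks 1359. Without overlap, 3 members were higher and 1 lower at that age, as were 12.7% and 14.5% of genes. All 3 HET libraries were low in interferon-induced RNA and 2 of the 3 βEedKO libraries high. For Vgf and the other members, genotype and that signal cannot be told apart in this 8-week comparison.

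Other genes of the granule pathway were taken from 6 lists. Of 6 prohormone processing enzymes and their helpers, 1 fell at 25 weeks and none rose, with a median log2 change of -0.42. Pcsk2, a prohormone convertase, fell from 2505 ± 182 to 993 ± 168 CPM (log2 -1.39 ± 0.36, adjusted p = 0.0485), which was lost with the block (adjusted p = 0.0944) and in 10 of 11 fits that each left out 1 library. Of 31 exocytosis genes, 3 rose and 4 fell. Sytl4 (granuphilin), which docks granules, went from 251 ± 25.5 to 77.3 ± 12.4 CPM (adjusted p = 0.00173), and Cadps, which primes them, from 112 ± 14.0 to 54.3 ± 18.2 CPM (adjusted p = 0.0353). The small GTPase Rab3c rose from 8.03 ± 3.43 to 48.7 ± 2.76 CPM (adjusted p = 0.00251) and the calcium sensor Syt5 from 21.7 ± 4.94 to 84.3 ± 14.2 (adjusted p = 0.00804).

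Of 17 granule biogenesis and membrane genes counted, 1 rose and 2 fell. Ica1l went from 28.3 ± 9.90 to 11.3 ± 0.44 CPM and the sorting receptor Sort1 from 202 ± 51.1 to 87.1 ± 1.59 (adjusted p = 0.0273 and 0.0348), while Sv2c, a synaptic vesicle glycoprotein, rose from 2.87 ± 1.71 to 16.8 ± 4.55 CPM (adjusted p = 0.0324). With the block Sort1 and Sv2c were not called (adjusted p = 0.0539 and 0.0756). Of 22 other zinc transporters and metallothioneins, 2 rose and none fell. Slc30a3 (ZnT3), the vesicular zinc transporter of neurons, had 0 reads in the 3 WT libraries and 47 and 174 in βEedKO at 25 weeks (3.58 and 7.02 CPM). The βEedKO mean was 54.5-fold above a floor of 3 reads over the WT group (adjusted p = 0.0153, with the block 0.0597). Slc39a11 rose from 13.2 ± 5.34 to 36.5 ± 14.0 CPM (adjusted p = 0.0416). Of 11 other EF-hand calcium sensors none was called by edgeR, 4 had an unadjusted p under 0.05 and DESeq2 called 2, beside 20.3% and 11.2% of all genes at that age.

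Among 10 regulators of granule genes none rose and 2 fell. Pax6, which is required for islet hormone genes, went from 367 ± 43.0 to 97.3 ± 28.9 CPM (log2 -1.97 ± 0.29, adjusted p = 0.00347), and Isl1 from 148 ± 26.0 to 51.3 ± 3.95 CPM (adjusted p = 0.0423). Leaving out 1 library at a time kept the calls of Sytl4, Rab3c and Pax6 in 11 of 11 fits, Syt5 in 10, Slc30a3 in 9, Ica1l in 8, Sv2c in 7, Cadps and Sort1 in 5, and Slc39a11 and Isl1 in 3. With scaling by library size alone none of the 7 named list genes that fell was called, with adjusted p from 0.0798 (Sytl4) and 0.0866 (Pax6) to 0.498 (Cadps), while the 5 that rose kept their calls. Without the interferon-high libraries of 8 weeks, Pcsk2, Cadps, Ica1l, Sort1, Sv2c and Slc39a11 were not called at 25 weeks. That fit has only 1 WT and 1 βEedKO library of 8 weeks to help estimate the spread. At 8 weeks edgeR called none of the 97 list genes, 16 had an unadjusted p under 0.05 and DESeq2 called 5, beside 7.87% and 2.1% of all genes. The share of all genes that edgeR called at 25 weeks, 6.6%, is the background for the counts of genes that rose or fell.

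The genes outside the set whose centred log2 CPM followed the members' median most closely over the 16 libraries were Pcsk2 (Pearson r = 0.937), Pofut2 (0.913), Wnt4 (0.906), Ttyh2 (0.904) and Tmem163 (0.902), among 9587 genes with a mean of at least 10 CPM. Among members, Scg2 and Scg3 followed each other most closely (r = 0.966), and Chgb and Slc30a8 were most opposed (r = -0.968). These values are descriptions, and the 2 βEedKO libraries of 25 weeks, which lie far from the rest, carry much of each.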

How the data were processed

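Bulk RNA-seq of whole islets (16 libraries in 6 groups, from the labels) and a chromatin state map of wild-type islets were used. The deposited values are unnormalised gene counts, which the authors made with TopHat2 2.0.13 on GRCm38 and featureCounts (Subread 1.5.0-p1) on Gencode gene models. Use of strand is not stated. The map holds EpicSeg state letters for 200 bp bins, as the authors deposited it. Other data of the series were not analysed here, and 0 count columns were left unused.

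Counts were fitted in R 4.3.3 with edgeR 4.0.16 (TMM factors, filterByExpr, quasi-likelihood test, Benjamini-Hochberg adjustment over all genes, called at 0.05). WT and βEedKO were compared in 1 fit of 4 groups and HET in a fit of all 6. DESeq2 1.42.0 was an alternative. The standard error is the absolute log2 fold change over the square root of F. Of 47937 identifiers, 47310 matched the later Gencode release used for names, lengths and start sites. Scripts were tested on simulated data. Libraries of a group are taken as separate samples, and the spread between them is estimated over all groups of a fit together. P-values measure that shared spread, and no 2 libraries of a group were alike (chi-square per degree of freedom 31.0 to 591.6).

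All 10 members were named, with the 2 largest falls and 2 largest rises among called genes of each list at 25 weeks, and the 5 genes most correlated with the members' median. The members and lists were chosen with earlier results of these data known.

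The labels do not say that replicate numbers mark litters or batches. WT and βEedKO libraries with the same number deviated together (r = 0.457 and 0.163 at 8 weeks, 0.176 and 0.255 at 25 weeks, over 18828 genes), so the numbers were treated as pairs. Libraries with different numbers also did at 8 weeks (WT 3 with βEedKO 5, r = 0.45, and WT 4 with βEedKO 5, r = 0.329), so the pairing is a hint from the data and the blocked value is given where it changes a call. At 8 weeks WT replicate 1 and βEedKO replicate 1 were interferon-low and the other WT and βEedKO libraries interferon-high. Replicate number and that signal cannot be told apart there. Libraries without a partner add nothing to the blocked fit.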

Additional observations from a re-analysis of the deposited data

Results flagged for a closer look

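The knockout effect on Slc30a8 differed between the ages by the test of the difference itself: the log2 fold change of βEedKO over WT was -0.25 ± 0.28 (SE) at 8 weeks and -3.38 ± 0.36 at 25 weeks, a difference of -3.14 ± 0.44 with an edgeR adjusted p of 0.0217. Leaving out 1 library at a time gave -3.46 to -2.88 and adjusted p values of 0.028 to 0.175, and the call was lost in 8 of 11 such fits, all but those without WT replicate 1 or βEedKO replicate 1 of 8 weeks or WT replicate 2 of 25 weeks. No group held more than 3 libraries, so no single library was tested as lying apart from its group. The part of high blood glucose in the age difference of Slc30a8 was not tested.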

How the results depend on the processing

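Leaving out the 4 interferon-high libraries, and trying the alternatives on the named list genes, were chosen after seeing the data. At 25 weeks Chgb (log2 2.89 to 3.54) and Slc30a8 (-3.70 to -3.05) kept direction and call under every alternative. The 8-week counts of 0 against WT, and the HET and wild-type age counts of 0, were the same under all. Of the 560 member log2 fold changes under alternatives, 493 kept direction and side of the threshold, 41 were weaker, 13 stronger and 13 reversed. Most of the 560 belong to values that the main fit did not call, and all 41 weaker ones to values it called. At 25 weeks Scg2 lost its call in 10 of 11 fits without 1 library and in 5 of 8 other alternatives. Scg3 lost it in 8 and 4 of these, and Scgn in 2 and 1. The age difference of Slc30a8 lost it in 8 of 11 and 3 of 7. Scaling by library size alone, which moved the median of all genes at 25 weeks from 0.03 to 0.265 (805 of 884 calls higher, against 856 of 1234), left 2 members called at 25 weeks against WT, 0 in the age difference, 0 against HET at 8 weeks and 2 at 25 weeks. Over all genes that scaling called 11 in the age difference, and 505 and 913 against HET. The main fit called 37, 892 and 1574. The replicate block gave 0 for the age difference, and 0 (8 weeks) and 1 (25 weeks) against HET. Over all genes the block called 2, 1 and 429. HET libraries had r = 0.08 to 0.161 with WT of the same number, and -0.015 to -0.00374 with βEedKO. A block against HET therefore has little ground. DESeq2 gave 4 for the age difference, 5 between ages in βEedKO and 3 against HET at 8 weeks. The fit of all 6 groups gave 3 and 5 for the first 2. Over all genes DESeq2 called 340, 960 and 2303 in these comparisons, and the fit of all 6 groups 90 and 473. The main fit called 37, 281 and 892. Leaving out the 4 interferon-high libraries left 1 WT and 1 βEedKO library at 8 weeks, while all HET libraries stayed. Calls in that setting are therefore not read for the age difference, the age change in βEedKO or the 8-week comparison with HET. Leaving out 1 library gave 2 to 5 members called at 25 weeks against WT, 0 to 1 in the age difference, 1 to 3 between ages in βEedKO, and against HET 0 to 3 at 8 and 2 to 7 at 25 weeks. Values near zero at 8 weeks changed sign: Ptprn (0.0519) and Ptprn2 (0.0556) by library size, Vamp2 (-0.0121) with the block. Over single left-out libraries Scg2 ran from -0.00821 to 0.183, Ptprn from -0.272 to 0.181, Ptprn2 from -0.286 to 0.0115, Scgn from -0.0448 to 0.269, Vamp2 from -0.109 to 0.13 and, at 25 weeks, Ptprn from -0.0637 to 0.882. Over all genes DESeq2 called 2093 at 25 weeks and 393 at 8 weeks, against 1234 and 81 with edgeR. By any annotated transcript start, 10 members have an active state against 9. The cause was not tested. Only 2 βEedKO libraries at 25 weeks limit what the spread can show.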
